A study of Mus musculus with 6 samples.

Results

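The 10 genes described here encode regulators of oxidative metabolism: the PPAR receptors (Ppara, Ppard, Pparg), the PGC-1 coactivators (Ppargc1a, Ppargc1b), the estrogen-related receptors (Esrra, Esrrb, Esrrg), the retinoid X receptor Rxra and nuclear respiratory factor Nrf1. They were taken by name, and not by their values, out of 19938 genes measured on transcript clusters with 1 gene symbol. Earlier results of these data were known when they were chosen. They lay on 11 clusters, 0 of them shared with another gene, and for Ppargc1a, which had 2, the brighter was used. RNA was taken from the whole hearts of 6 C57BL/6J mice on postnatal day 14, after 1 week of treatment, and each heart had 1 Affymetrix array. The groups were 3 hearts given phosphate-buffered saline (PBS replicates 3, 9 and 12) and 3 given ETX (replicates 6, 7 and 10). ETX is the usual short name of etomoxir, which blocks carnitine palmitoyltransferase 1 and with it fatty acid entry into mitochondria, but the labels used here do not spell it out and give no dose. The comparison asks which transcripts differ between the treated and the vehicle hearts.

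PPARs are nuclear receptors that bind fatty acids and, paired with a retinoid X receptor, switch on genes of fatty acid uptake and oxidation. Estrogen-related receptors are orphan receptors that drive genes of the tricarboxylic acid cycle and the respiratory chain, and the PGC-1 proteins are coactivators that both receptor families and NRF1 recruit. In the heart this network rises around birth, when the muscle turns from glucose and lactate to fatty acids.

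Values are log2 signals, so a difference of 1 is a doubling. All 10 regulators lay above the filter on dim genes (a mean of 3.45) and were tested with limma among 14953 genes. Levels of different genes were not set against each other, since probes differ in brightness. The hearts expressed ventricular muscle genes evenly: the mean of 9 markers ran from 11.53 to 11.60 in PBS and from 11.49 to 11.60 in ETX. The mean of 9 lung markers, at 3.55 to 3.69 in 4 hearts, stood at 5.97 in PBS replicate 3 and 7.50 in PBS replicate 9 (Scgb1a1, the club cell secretory protein, was at 8.63 and 8.40 there), and atrial transcripts were high in PBS replicate 3 and ETX replicates 6 and 7 (mean of 6 markers 7.52 to 8.26, against 5.58 to 6.13), with Bmp10, an atrial growth factor, at 7.71 in PBS replicate 3 and at 2.55 to 2.94 in the other 5. Xist, the X-inactivation transcript of female cells, was high in 1 PBS heart (replicate 3) and 2 ETX hearts (replicates 6 and 10).

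Of the 10 regulators, Esrrb rose in ETX and the other 9 did not pass an adjusted p of 0.05 in limma. Over all genes tested 3.56% passed (1.14% higher in ETX, 2.43% lower). There was no overlap between the groups for Esrrb and Esrra, which were higher in ETX, nor for Ppard and Rxra, which were lower. That is 4 of 10 (40%), against 27.7% of all genes tested. The median difference of the 10 was -0.024, beside -0.0063 over all genes tested, with 5 above 0 and 5 below. The regulators therefore showed no common direction.

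**Figure D1:**
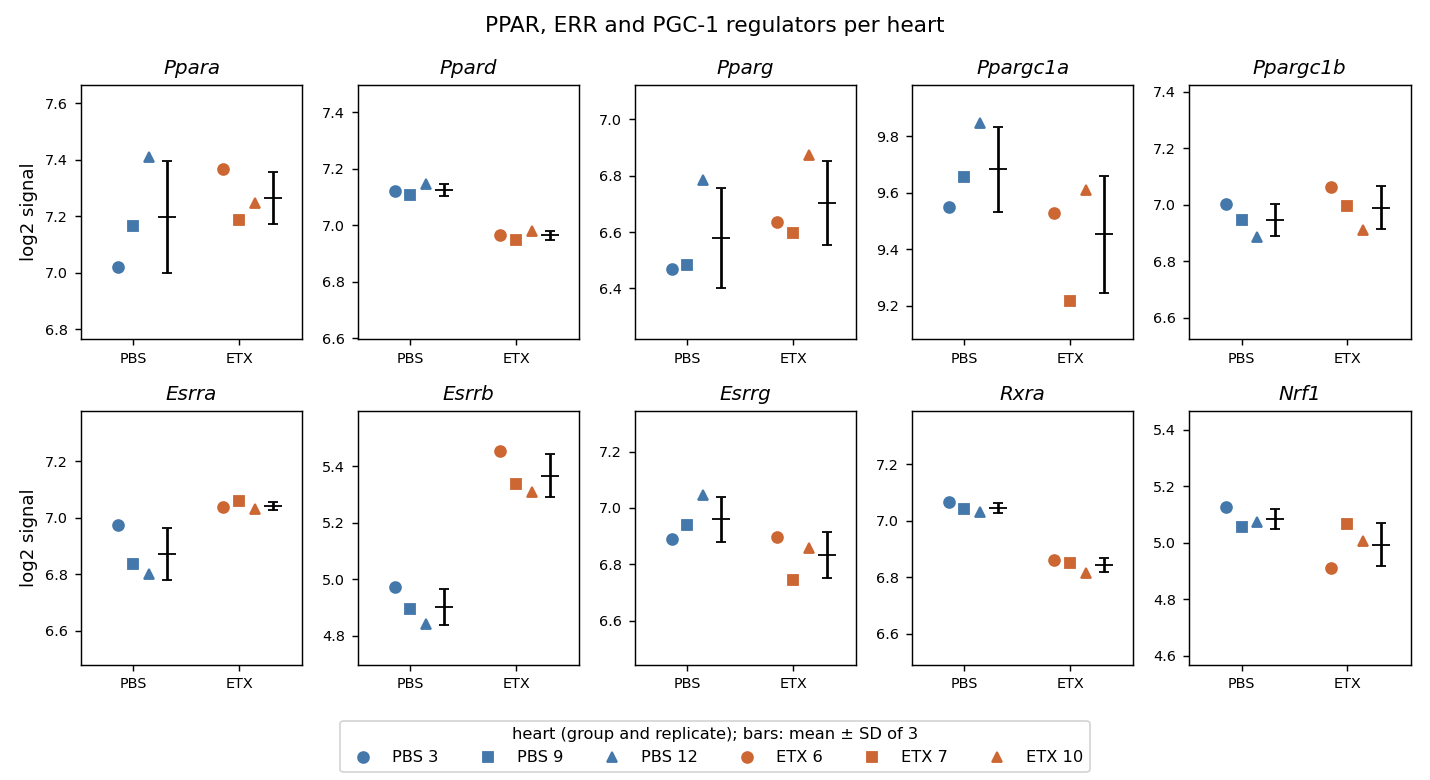
Log2 signal (vertical axes, each spanning the same range) of the 10 regulators in the 3 PBS (blue) and 3 ETX (orange) hearts, with the mean and SD of each group. Esrrb lies between 4.84 and 4.97 in PBS and between 5.31 and 5.45 in ETX, whereas Ppara, Pparg, Ppargc1a, Ppargc1b, Esrrg and Nrf1 overlap between the groups.

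Among the estrogen-related receptors, Esrrb (ERR-beta, best known for its part in pluripotent stem cells, the placenta and the inner ear) was at 4.97, 4.89 and 4.84 in PBS replicates 3, 9 and 12 and at 5.45, 5.34 and 5.31 in ETX replicates 6, 7 and 10. Every ETX heart was above every PBS heart, and the gap between the groups was wider than the range within either. The mean was 4.90 ± 0.06 in PBS and 5.37 ± 0.08 in ETX (SD, n = 3 each), so that Esrrb rose 1.38-fold, a difference of 0.46 with a 95% interval of 0.30 to 0.63 (limma adjusted p = 0.021). With each heart left out in turn the difference ran from 0.42 to 0.50. It lost the call without PBS replicate 3, PBS replicate 12, ETX replicate 6 or ETX replicate 7 (limma adjusted p = 0.0542, 0.0572, 0.0637 and 0.0749). The Esrrb signals were not far above the array medians of 4.43 to 4.51, and these values hold no detection call.

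Markers of other tissues and cells were set beside Esrrb. Atrial scores were 8.26, 5.58 and 5.69 in PBS replicates 3, 9 and 12, which were at 4.97, 4.89 and 4.84 for Esrrb. They were 7.52, 7.65 and 6.13 in ETX replicates 6, 7 and 10, which were at 5.45, 5.34 and 5.31. The part of atrial tissue in the Esrrb difference was not tested beyond the fit with this score. The Esrrb difference was 0.44 (limma adjusted p = 0.0492) when the mean of the atrial markers was added to the model, 0.50 (0.0847) with that of the lung markers and 0.44 (0.061) with sex. It was 0.52 (limma adjusted p = 0.116) without PBS replicates 3 and 9, and 0.22 (0.935) with the mean of the endothelial markers, a mean that was lower in every ETX heart than in any PBS heart. Of 6 brown fat markers 5 were measured, with a mean of 4.59 to 4.80 in PBS and 4.77 to 5.20 in ETX. Ucp1, the brown fat uncoupling protein, was at 5.72 in ETX replicate 6, the heart with the most Esrrb, and at 3.57 to 3.77 in the other 5. Cidea, a lipid droplet protein listed with the brown fat markers, rose by 0.47 (limma adjusted p = 0.0266), from 7.71 to 7.79 in PBS to 8.07 to 8.30 in ETX. With hearts left out singly Cidea passed only without ETX replicate 6, and otherwise had a limma adjusted p up to 0.1015. Ebf2, a transcription factor of brown fat precursors, lay the other way without overlap, at 6.46, 6.29 and 6.66 in PBS and 6.04, 6.09 and 6.25 in ETX (-0.34, limma adjusted p = 0.116). Without ETX replicate 6 the Esrrb difference was 0.42, and the part of brown fat in it was not tested further. In whole hearts, more cells of a type and more RNA per cell cannot be told apart.

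The RefSeq table of promoter windows (GRCm38.p6, 250 bases before to 50 after an annotated start) holds 17 windows for 9 of the 10 regulators, 2 of them for Esrrb. The stretch before an Esrrb start is printed because Esrrb is the regulator that passed the test. The 100 bases end 1 base before the start and lie on the + strand, with a CCAAT box, a common promoter element, in capitals, its first base 55 bases before the start.
Esrrb, chr12:86421544-86421643: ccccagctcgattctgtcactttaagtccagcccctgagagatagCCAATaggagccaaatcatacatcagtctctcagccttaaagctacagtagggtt
CCAAT was searched on both strands and was in 37.4% of 32851 promoter windows of this length, and in 6 of the 17 windows of the regulators. The estrogen-related receptor motif TNAAGGTCA, searched likewise, was in 0 of those 17 and in 1.28% of all windows.

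Esrra (ERR-alpha, a main driver of mitochondrial genes in heart and muscle) was at 6.97, 6.83 and 6.80 in the PBS hearts and at 7.04, 7.06 and 7.03 in the ETX hearts. The ETX hearts were nearly alike and all higher, and PBS replicate 3 was the PBS heart nearest to them. The difference of 0.17 (95% interval 0.01 to 0.33) did not pass (limma adjusted p = 0.204), and it ran from 0.14 to 0.22 with 1 heart left out. Esrrg (ERR-gamma, which promotes the perinatal turn to oxidative metabolism in the heart) was at 6.89, 6.94 and 7.05 in PBS and at 6.90, 6.74 and 6.86 in ETX. Here ETX replicate 6 lay above PBS replicate 3, and the difference of -0.13 (95% interval -0.30 to 0.04) did not pass (limma adjusted p = 0.366).

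Rxra (RXR-alpha, the retinoid X receptor that pairs with PPARs) was at 7.07, 7.04 and 7.03 in the PBS hearts and at 6.86, 6.85 and 6.81 in the ETX hearts. The hearts of each group were nearly alike, and every ETX heart was below every PBS heart. Rxra was 1.15-fold lower on average, a difference of -0.20 with a 95% interval of -0.34 to -0.07, and did not pass over all genes (limma adjusted p = 0.104). With 1 heart left out the difference ran from -0.21 to -0.19, and it kept its sign in all 23 alternatives run without passing in any. The other retinoid X receptors differed by -0.01 (Rxrb, limma adjusted p = 0.954) and -0.09 (Rxrg, 0.504).

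Of the 2 annotated Rxra starts, the start shown has the nuclear receptor core AGGTCA at 2 places in the 100 bases before it, and is printed because PPARs, RXRs and estrogen-related receptors all recognise this core. The stretch is on the + strand of GRCm38.p6, ends 1 base before the start and has the matches in capitals. They begin 87 and 48 bases before the start, the first on the opposite strand.
Rxra, chr2:27709192-27709291: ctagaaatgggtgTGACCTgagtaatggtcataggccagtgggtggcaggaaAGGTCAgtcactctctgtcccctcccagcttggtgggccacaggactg
AGGTCA, searched on both strands and contained in the 2 longer receptor motifs searched, was in 16.3% of all promoter windows and in 3 of the 17 windows of the regulators, those of Rxra and Pparg. The direct repeat of this core with any 1 base between both copies, which PPAR and RXR bind as a pair, was in 0 of the 17 and in 0.0396% of all windows. A match is a run of letters and not a shown binding site.

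Of the PPAR receptors, Ppard (PPAR-delta, the form found in most tissues) was at 7.12, 7.11 and 7.15 in PBS and at 6.96, 6.95 and 6.98 in ETX. As with Rxra, the hearts of each group were nearly alike, and the ETX hearts were all lower. The difference of -0.16 (95% interval -0.30 to -0.02) did not pass (limma adjusted p = 0.166) and ran from -0.17 to -0.15 with 1 heart left out. Ppara (PPAR-alpha, the main PPAR of fatty acid oxidation in heart and liver) was at 7.02, 7.16 and 7.41 in PBS and at 7.37, 7.19 and 7.25 in ETX. The PBS hearts spanned the whole ETX range, and the difference of 0.07 had a 95% interval of -0.18 to 0.31 (limma adjusted p = 0.756). The 2 PBS hearts with lung transcripts were the lower ones. Without them, against PBS replicate 12 alone, the difference was -0.15 (limma adjusted p = 0.529), and without PBS replicate 3 it was -0.02.

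Pparg (PPAR-gamma, the receptor of fat cell formation, also present in endothelium and macrophages) was at 6.47, 6.48 and 6.78 in PBS and at 6.63, 6.60 and 6.87 in ETX. In each group 1 heart stood higher than the other 2, PBS replicate 12 and ETX replicate 10. The difference of 0.12 (95% interval -0.13 to 0.38) did not pass (limma adjusted p = 0.568) and was -0.08 without PBS replicates 3 and 9. Of 7 adipocyte markers 6 were measured, with a mean of 4.78 to 4.97 in PBS and 4.91 to 5.01 in ETX. Adipoq, the adiponectin gene of fat cells, was under the filter at 3.02 to 3.27 in PBS and 3.29 to 3.61 in ETX, without overlap. Fabp4, a fatty acid-binding protein of fat cells and capillary endothelium, differed by -0.08 (limma adjusted p = 0.727).

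The Ppara start is shown because it is the promoter window of a regulator that held the NRF1 motif, GCGCA followed by any base and GCGC, and NRF1 is itself among the regulators described. The 100 bases end 1 base before the start on the + strand of GRCm38.p6, with the match in capitals, its first base 31 bases before the start and the same on both strands.
Ppara, chr15:85735676-85735775: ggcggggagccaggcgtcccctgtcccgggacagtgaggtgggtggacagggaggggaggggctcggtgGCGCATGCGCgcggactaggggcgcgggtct
The motif was in 4.6% of all promoter windows and in 1 of the 17 of the regulators. Neither Ppara nor Nrf1 passed the test. Nrf1 (nuclear respiratory factor 1, which activates nuclear genes of mitochondrial proteins) was at 5.12, 5.06 and 5.07 in PBS and at 4.91, 5.07 and 5.0 in ETX. Its difference of -0.09 (95% interval -0.25 to 0.07) did not pass (limma adjusted p = 0.482), and ETX replicate 7 lay inside the PBS range.

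Of the PGC-1 coactivators, Ppargc1a (PGC-1 alpha, induced by fasting, cold and exercise) was at 9.55, 9.65 and 9.85 in PBS and at 9.53, 9.22 and 9.61 in ETX. ETX replicate 10 lay above PBS replicate 3, so the groups overlapped, and ETX replicate 7 was the lowest heart. The difference of -0.23 had the widest 95% interval of the 10 regulators, -0.51 to 0.04, and did not pass (limma adjusted p = 0.306). Without ETX replicate 7 it was -0.11. The dimmer Ppargc1a cluster, at 6.85, 6.78 and 7.16 in PBS and 7.09, 6.67 and 6.96 in ETX, differed by -0.02, so the 2 clusters of this gene did not give the same size. Ppargc1b (PGC-1 beta, a second coactivator of mitochondrial genes) was at 7.0, 6.95 and 6.89 in PBS and 7.06, 7.0 and 6.91 in ETX. Its difference of 0.04 (95% interval -0.12 to 0.21) did not pass (limma adjusted p = 0.761).

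**Figure D2:**
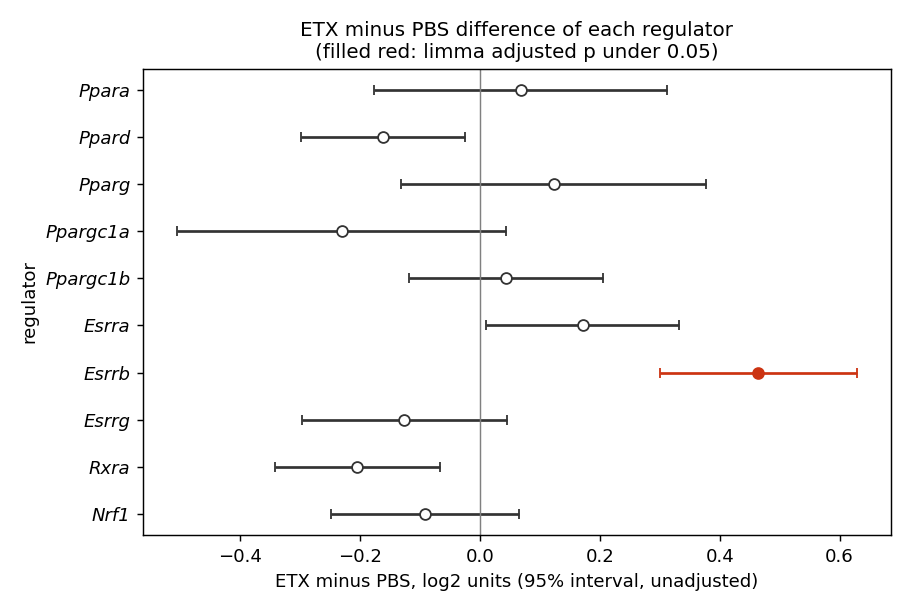
Difference of ETX minus PBS means in log2 units (horizontal axis) for each regulator, with its unadjusted 95% interval from limma. Esrrb, filled, at 0.46, is the regulator with an adjusted p under 0.05; the intervals of Esrra, Ppard and Rxra also leave out 0 without adjustment for the number of genes.

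Before adjustment 4 regulators had a p under 0.05, Esrrb and Esrra higher and Rxra and Ppard lower, as did 21.9% of all genes tested (8.86% higher, 13.1% lower). The balance within a family was described by the log2 ratio of each pair of its members within an array, set to a PBS mean of 0, an analysis added after the values were seen. Of 7 pairs, 4 did not overlap between the groups. Esrrb over Esrrg was at 0.14, 0.01 and -0.15 in PBS and at 0.61, 0.65 and 0.51 in ETX, a difference of 0.59. Esrrb over Esrra differed by 0.29 (0.25 to 0.38 in ETX, -0.04 to 0.03 in PBS). Esrrg over Esrra differed by -0.30 (-0.40 to -0.23 in ETX, -0.17 to 0.16 in PBS). Relative to PBS, Esrrb stood higher against both other estrogen-related receptors, and Esrra higher against Esrrg. These ratios are not independent, since Esrrb over Esrrg is Esrrb over Esrra minus Esrrg over Esrra. The ratios with Esrrb also carry the Esrrb difference already described. The share of non-overlapping ratios among all pairs of genes was not computed. Pparg over Ppard differed by 0.28 (0.20 to 0.44 in ETX, -0.11 to 0.18 in PBS), but by 0.10 without PBS replicates 3 and 9. With the mean of the endothelial markers in the model, Esrrb over Esrrg differed by 0.20, Esrrb over Esrra by 0.15, Esrrg over Esrra by -0.06 and Pparg over Ppard by 0.92. Without PBS replicates 3 and 9, Esrrg over Esrra differed by -0.45. For these 4 pairs the two-sided exact permutation p was 0.1, and 0.175 adjusted over the 7 pairs. The 0.1 is the smallest that 3 against 3 hearts can give, and any pair without overlap has it. This p therefore adds nothing to the lack of overlap. The remaining pairs, Ppard over Ppara, Pparg over Ppara and Ppargc1a over Ppargc1b, overlapped (exact permutation p = 0.2, 0.8 and 0.2).

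**Figure D3:**
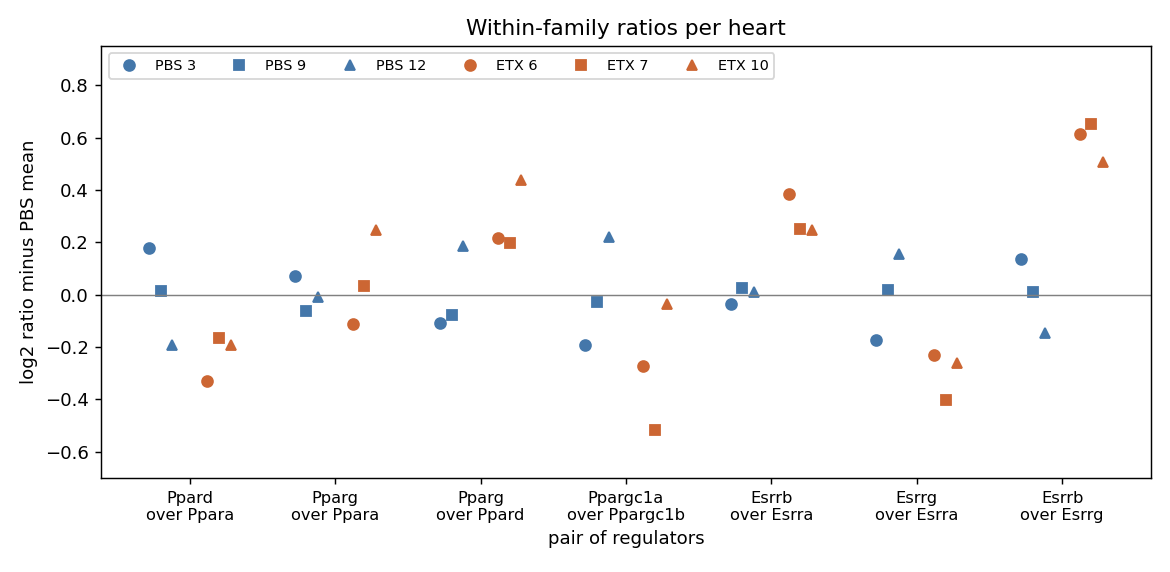
Log2 ratio of 2 regulators of a family within each array minus its PBS mean (vertical axis) for 7 pairs, 3 PBS (blue) and 3 ETX (orange) hearts. The ETX hearts lie at 0.51 to 0.65 for Esrrb over Esrrg and at -0.40 to -0.23 for Esrrg over Esrra, outside the PBS hearts.

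Transcripts of the proteins that PPARs, estrogen-related receptors and PGC-1 work with mostly had lower means in ETX. Of 20 listed partners and co-regulators 17 were tested, and 15 were below 0 (88.2%, against 51.6% of all genes tested), with a median of -0.14. In limma 1 fell and 0 rose, or 5.88% against a background of 3.56%. At an unadjusted p under 0.05, 7 were lower and 1 higher (47.1%, against 21.9% of all genes tested). Without overlap between the groups 8 were lower and 2 higher (58.8%, against 27.7%). Crebbp (CBP, a histone acetyltransferase that nuclear receptors recruit) was at 8.65, 8.67 and 8.62 in PBS and at 8.21, 8.15 and 8.24 in ETX. It was 1.36-fold lower (limma adjusted p = 0.0144), and it lost the call without PBS replicate 3 or ETX replicate 7 (limma adjusted p = 0.0572 and 0.071). Ncoa3 and Ep300, also acetyltransferase coactivators and named after their values were seen, differed by -0.41 (limma adjusted p = 0.0517) and -0.31 (0.0875), with all ETX hearts below all PBS hearts. Kat2a, another acetyltransferase on the list, differed by -0.09 (limma adjusted p = 0.472), with overlap between the groups.

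Markers of endothelium, macrophages and fibroblasts were measured in the same hearts, beside 2.43% of all genes tested that were called lower. The mean of 8 endothelial markers was 9.01 to 9.04 in PBS and 8.68 to 8.81 in ETX, and 3 of 8 fell (Tie1 by 0.56, Cdh5 by 0.42 and Esam by 0.34, all proteins of endothelial junctions or signalling). The mean of 8 macrophage markers was 6.99 to 7.16 in PBS and 6.57 to 6.67 in ETX, and 5 of 8 fell (Csf1r, the macrophage growth factor receptor, by 0.76, Adgre1 by 0.72 and the complement genes C1qa, C1qb and C1qc by 0.48, 0.51 and 0.57). The mean of 7 fibroblast markers was 9.41 to 9.57 in PBS and 9.26 to 9.42 in ETX, so that the groups overlapped, and 1 of 7 fell (Pdgfra, by 0.50). Limma adjusted p for these 9 genes ran from 0.0056 to 0.0462. With 1 heart left out Csf1r and C1qc passed in all 6 fits, Tie1 in 4, C1qa and C1qb in 2, Cdh5 and Pdgfra in 1, and Esam (limma adjusted p = 0.0621 to 0.12) and Adgre1 (0.0603 to 0.124) in 0. Of the ventricular markers 0 of 9 passed, and 2 had an unadjusted p under 0.05 in limma (22.2%, against 21.9% of all genes tested). Tcap, a sarcomere protein with the widest range of these markers, was at 9.18 to 9.40 in PBS and 9.35 to 9.77 in ETX. The part of macrophages and fibroblasts in the differences of the regulators was not tested. For endothelium the mean of the markers was added to the model, where Esrrb differed by 0.22 (limma adjusted p = 0.935). Of the variance of the endothelial mean over the 6 hearts 91.8% lay between the groups, so the endothelial share and the treatment cannot be told apart here.

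Of 26 genes that signal to PGC-1, 25 were tested, with 1 higher and 0 lower in limma, or 4% against 3.56% (3 and 6 at an unadjusted p under 0.05, or 36% against 21.9%). Their median was -0.09, and 17 were below 0 (68%, against 51.6%). Without overlap between the groups 11 were lower and 3 higher (56%, against 27.7% of all genes tested). Prkag2 (the gamma-2 subunit of the energy sensor AMP-activated kinase, AMPK) was at 6.31, 6.22 and 6.17 in PBS and at 6.64, 6.80 and 6.50 in ETX. It rose 1.33-fold with a limma adjusted p of 0.0496, just under the threshold, and lost the call in all 6 fits without 1 heart (limma adjusted p = 0.06 to 0.15). With arrays centred on their median it did not pass either (0.055). The catalytic AMPK subunits Prkaa1 and Prkaa2 differed by -0.23 and -0.18 (limma adjusted p = 0.213 and 0.175).

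A Prkag2 start is shown because its window held the estrogen-related receptor motif TNAAGGTCA, on the opposite strand, as did 1.28% of all windows. The gene lies on the - strand, and the 100 bases, 5′ to 3′ along the gene, end 1 base before the start, with the match in capitals beginning 43 bases before it.
Prkag2, chr5:24995754-24995853: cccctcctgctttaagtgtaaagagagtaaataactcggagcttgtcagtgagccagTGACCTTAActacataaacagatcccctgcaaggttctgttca
The other windows of Prkag2 in the table did not hold these letters.

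The genes downstream of the regulators had medians near 0. Of 37 listed PPAR target genes 30 were tested, with 0 higher and 2 lower in limma, or 6.67% against a background of 3.56%, and a median of -0.05. At an unadjusted p under 0.05 in limma, 0 were higher and 9 lower (30%, against 21.9% of all genes tested). Without overlap between the groups 0 were higher and 6 lower (20%, against 27.7%). Ech1, a dienoyl-CoA isomerase of fatty acid oxidation, was at 11.50, 11.40 and 11.41 in PBS and at 11.10, 10.92 and 10.999 in ETX, 1.35-fold lower (limma adjusted p = 0.0277). Plin2, which coats lipid droplets, was at 8.57, 8.53 and 8.45 in PBS and at 8.15, 8.15 and 8.25 in ETX, 1.26-fold lower (limma adjusted p = 0.0418). Both fell without overlap between the groups. Of the PPAR receptors, Ppara and Pparg overlapped, while Ppard, like the partner Rxra, was lower without overlap and did not pass. With hearts left out singly, Ech1 passed only when ETX replicate 6 was the heart omitted (limma adjusted p = 0.0482) and otherwise had 0.0528 to 0.104, while Plin2 never passed (0.0684 to 0.148). With quantile normalization Plin2 had a limma adjusted p of 0.0682. Of the 30, 16 were below 0 (53.3%, against 51.6% of all genes tested).

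Of 28 listed targets of estrogen-related receptors and PGC-1, 27 were tested and 0 passed in limma, with 4 lower and 0 higher at an unadjusted p under 0.05. Their median was -0.05, and 20 were below 0 (74.1%, against 51.6% of all genes tested). The 0 calls compare with 3.56% of all genes tested, and the 4 (14.8%) with 21.9%. Without overlap between the groups 8 were lower and 2 higher (37%, against 27.7% of all genes tested). The smallest p belonged to Ckmt2 (mitochondrial creatine kinase of muscle, -0.27, limma adjusted p = 0.0814), Idh3g (a subunit of isocitrate dehydrogenase, -0.26, 0.0961) and Ndufs1 (a complex I subunit, -0.26, 0.0995), each without overlap between the groups. All 14 genes of mitochondrial transcription and mitochondrial DNA upkeep were tested and 0 passed in limma, with a median of -0.0036 and 7 on each side of 0. At an unadjusted p under 0.05, 1 was higher and 2 lower (21.4%, against 21.9% of all genes tested). The smallest p belonged to the elongation factor Tefm (0.23, limma adjusted p = 0.152), the regulator Mterf3 (-0.25, 0.201) and Gabpb1, a subunit of nuclear respiratory factor 2 (-0.24, 0.212). Tfam, which packages mitochondrial DNA and is a textbook target of NRF1, differed by 0.13 (limma adjusted p = 0.633).

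**Figure D4:**
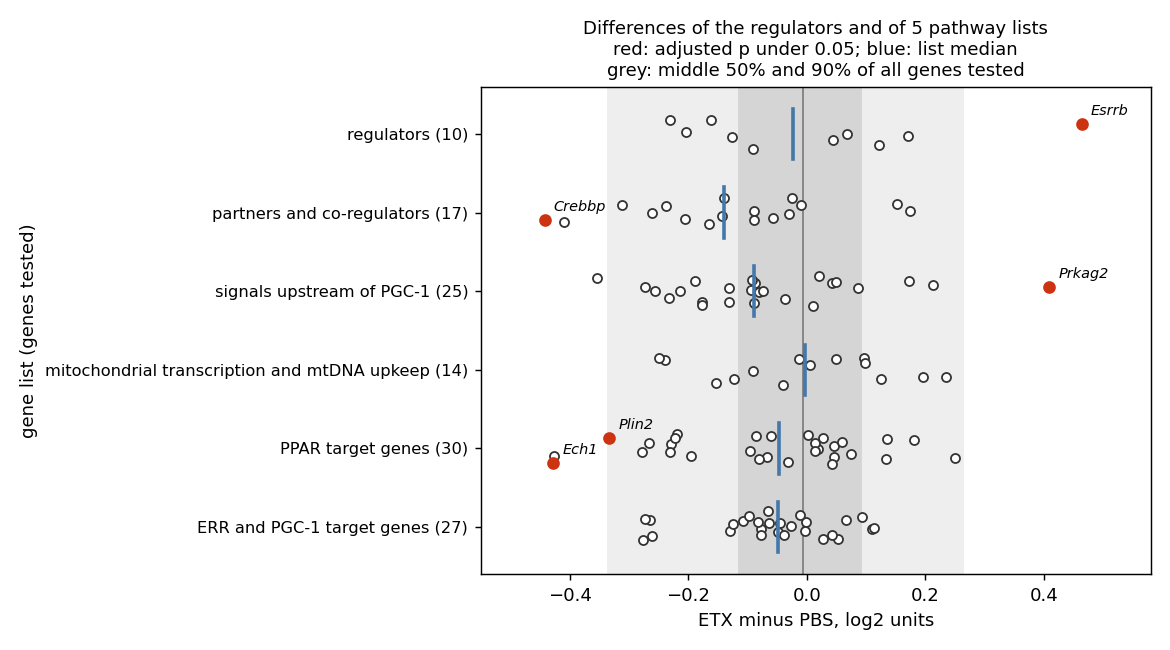
Difference of ETX minus PBS in log2 units (horizontal axis) for the 10 regulators and the tested genes of 5 pathway lists (circles), with list medians in blue and the middle 50% and 90% of all genes tested in grey. Red circles passed an adjusted p of 0.05: Esrrb and Prkag2 higher in ETX, Crebbp, Ech1 and Plin2 lower.

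The genes most like the regulators with the smallest p were sought by the mean absolute difference of log2 values, each gene centred on its own mean, over the 6 hearts and among 13945 named genes. Closest to Esrrb were Hdac6 (a cytoplasmic deacetylase, 0.024), Ckb (brain-type creatine kinase, 0.032) and Syngr1 (a synaptic vesicle protein, 0.033). They differed by 0.45, 0.44 and 0.52 between ETX and PBS (limma adjusted p = 0.033, 0.029 and 0.0203), as their likeness to Esrrb fixes. Closest to Rxra were Slc22a18 (0.012), Gtf3c1 (a subunit of transcription factor IIIC, 0.015) and the small GTPase Rras (0.015), which differed by -0.21, -0.21 and -0.23 without passing (limma adjusted p = 0.11, 0.0915 and 0.0822).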

How the data were processed

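The deposited values are log2 signals per transcript cluster that the authors made with Affymetrix Expression Console and RMA, as the submitters' processing notes list them without versions. RMA includes a quantile step, but the deposited arrays kept unequal medians (4.43 to 4.51), and differences of dim transcripts come out too small. The genome build is not given in the sources used here. Of 35556 clusters, 21789 had 1 gene symbol in the platform annotation, and each gene was taken from its brightest cluster. Genes in the lower quartile of means (under 3.45) were left out. The comparison used limma 3.58.1 (lmFit, eBayes, two-sided, Benjamini-Hochberg adjustment over 14953 genes, threshold 0.05) in R 4.3.3, a procedure tested on simulated data. The labels call the hearts biological replicates, and 3 arrays per group limit the precision.

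The members and the 13 gene lists were chosen with earlier results of these data known, so no p over a list is given. Named are the 10 regulators, from each pathway list the genes that passed or otherwise the 3 with the smallest p, markers that passed or had the largest range, and the genes most like 2 regulators. Other genes were named after their values were seen. Promoter windows came from RefSeq (GRCm38.p6). The alternatives were other filters, eBayes options, array weights, scalings, cluster choices and thresholds, an unmoderated model, hearts left out, and marker scores or sex (read from Xist) as covariates. The dimmer Ppargc1a cluster and the ratios within families were added after seeing the data. The plots were made in Python 3.11.15 by matplotlib 3.10.9.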

Additional observations from a re-analysis of the deposited data

How the results depend on the processing

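Over 23 alternatives, Esrrb stayed higher in ETX in all (0.22 to 0.52) and passed in 14 (limma adjusted p 0.0093 to 0.935 over all 23). Ppard, Rxra and Nrf1 stayed lower and Esrra higher in all 23, and none of the 9 other regulators passed in any. The number of regulators called was 0 in place of 1 with the unmoderated model, with the lung-marker score, the endothelial-marker score or sex in the fit, and without PBS replicates 3 and 9, and 0 to 1 without 1 heart (4, 1, 1, 3, 3 and 2 to 4 at an unadjusted p under 0.05 in limma). All genes called, 533 as reported, numbered 909 with the filter at the median, 870 with a mean-variance trend, 1259 at a threshold of 0.1, 337 over all clusters, 141 with the atrial score, 120 with sex, 75 with the lung score, 19 without PBS replicates 3 and 9, 90 to 242 without 1 heart, and 0 with the unmoderated model or the endothelial score (2738 and 905 at an unadjusted p under 0.05). Pathway genes called, 4 as reported, numbered 7 and 8 with the filter at the median and the trend, 10 at the threshold of 0.1, 2 with no filter or with sex, 1 over all clusters or with the atrial score, 0 to 2 without 1 heart, and 0 with the unmoderated model, the lung score, the endothelial score or without PBS replicates 3 and 9 (33, 23, 7 and 18 at an unadjusted p under 0.05). Of the calls, 68.1% were lower in ETX as deposited, 78.6% after median centring (584 calls, a shift of -0.029 in all genes) and 58.3% after quantile normalization (535 calls). The median of the regulators was -0.053 with arrays centred, 0.0040 after quantile normalization, -0.11 without PBS replicates 3 and 9, -0.086 with the lung score, 0.048 with the endothelial score, 0.0098 with the dimmer Ppargc1a cluster, and -0.047 to -0.021 without 1 heart. Ppara turned to -0.022 without PBS replicate 3 (-0.022 to 0.17 without 1 heart), -0.15 without PBS replicates 3 and 9 and -0.078 with the lung score, where Pparg turned to -0.083 and -0.040. With the endothelial score the signs turned for Esrrg (0.019), Ppargc1a (0.40), Ppargc1b (-0.26), Ckmt2 (0.12), Gabpb1 (0.36), Mterf3 (0.38), Ncoa3 (0.069), Ep300 (0.16), Cdh5 (0.20), Prkag2 (-0.11), Tcap (-0.31) and Ucp1 (-1.41). That score differs between the groups almost as the treatment does (91.8% of its variance), and the cause of the other changes was not tested. No paired analysis was possible because the groups share no replicate number. There is no detection call in these values, and the RMA scale gives no signal over background.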
